A study of Mus musculus with 6 samples.

Results

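The genes described here encode the machinery that prepares, opens and copies replication origins in the nucleus. They are 46 genes given as a list of symbols for their roles in replication, and all 46 were among the 35976 symbols of the count table. This list and the related lists below were chosen with earlier results of these data known. Their contrast with all genes tested is therefore a description and not an independent test. They were read in RAW264.7, a transformed mouse macrophage-like line, in 3 libraries of cells exposed to itaconate for 24 h and 3 libraries of cells with no treatment (control). Both groups share the line and differ, per the labels, by the itaconate alone; neither its dose nor its chemical form is stated, no vehicle is named, and it is not stated whether replicates were grown apart. The p-values therefore measure the spread between these libraries, which may be technical.

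Before a cell copies its DNA, the origin recognition complex (ORC) sits on origins and, with CDC6 and CDT1, loads the ring-shaped MCM2-7 helicase, a step called licensing that geminin restrains outside G1. In S phase the kinase CDC7 with its partner DBF4, together with MCM10, CDC45 and the GINS complex, turns the loaded ring into an active helicase. Primase and polymerase alpha then start each strand, polymerases epsilon and delta extend it on the sliding clamp PCNA, which the RFC complex loads, and FEN1 and LIG1 join the short fragments of the lagging strand. Many of these genes are transcribed around the start of S phase under E2F transcription factors and are known to be low in cells that have stopped dividing.

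The libraries were of a 3′ tag kind, in which reads fall near the poly(A) end of a transcript. The libraries held 5202626 to 6098934 counts, and 3 counts, taken as the floor, were worth between 0.486 and 0.564 CPM, the count relative to the library's total after TMM scaling. Log2 levels correlated across tested genes at 0.971 to 0.977 between libraries of a group and at 0.940 to 0.944 between groups. All 9 macrophage markers examined were detected, with a summed level of 6245 to 6585 CPM in itaconate libraries and 8393 to 9543 CPM in control libraries, and 6 of the 9 were called lower and 1 higher; the part of this shift in the results was not tested. Marker lists of fibroblasts, T cells, B cells, neutrophils and epithelium summed to at most 2.09 CPM in any itaconate library and 2.84 CPM in any control library, and Dcn, Cd3e, Ly6g and Krt8 had 0 counts throughout.

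Replication genes fell after itaconate at each of the 10 steps into which they were grouped, though not every subunit did, and none was called higher. The least stable step was ORC, whose 2 calls became 0 without itaconate replicate 1, itaconate replicate 3, control replicate 2 or control replicate 3. Of the 46 genes, 31 fell, 13 were not called and 2 had too few counts to be tested (edgeR's quasi-likelihood test, adjusted p under 0.05 over 10636 genes). Among all genes tested 11.2% were called lower and 10.7% higher. The 0 calls in the higher direction were also 0 at an unadjusted p under 0.05 with edgeR, and 0 with DESeq2 and with limma-voom. The median log2 fold change of the 44 tested genes was -1.22, beside -0.01 over all genes tested. For 37 of them every itaconate library lay below every control library, against 17.9% of all genes tested. A fall of more than 1 on the log2 scale was called for 23, against 3.86% of all genes, of more than 2 for 8, against 1.5%, and of more than 3 for 1, Mcm10, against 0.498%.

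The 46 genes together took 0.0874%, 0.0922% and 0.0920% of the counts in the itaconate libraries, against 0.224%, 0.199% and 0.221% in the control libraries. The libraries of a group were thus close to each other and the groups lay apart. The mean share was 0.0905% ± 0.00268 in itaconate and 0.215% ± 0.0137 in control libraries (SD, n = 3 each). Exact binomial 95% intervals, which cover counting error only, ran from 0.0850% to 0.0948% over the itaconate libraries and from 0.195% to 0.228% over the control libraries. In bulk RNA, fewer replicating cells and less transcript in each replicating cell cannot be told apart.

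The filter on low counts kept 5 genes, Orc1, Mcm10, Cdc7, Pole and Timeless, only through their control libraries, so their testing depended on the group in which they were high. All 5 are among the 37 genes whose itaconate libraries all lay lower, and they enter the median of -1.22. Mcm10, Pole and Timeless are also among the 8 genes with called falls of more than 2 on the log2 scale. Among the 39 genes that met the minimum in all 6 libraries, 27 were called lower, beside 11.2% of all genes tested. The share among all genes that met the minimum in all 6 libraries was not computed.

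**Figure D1:**
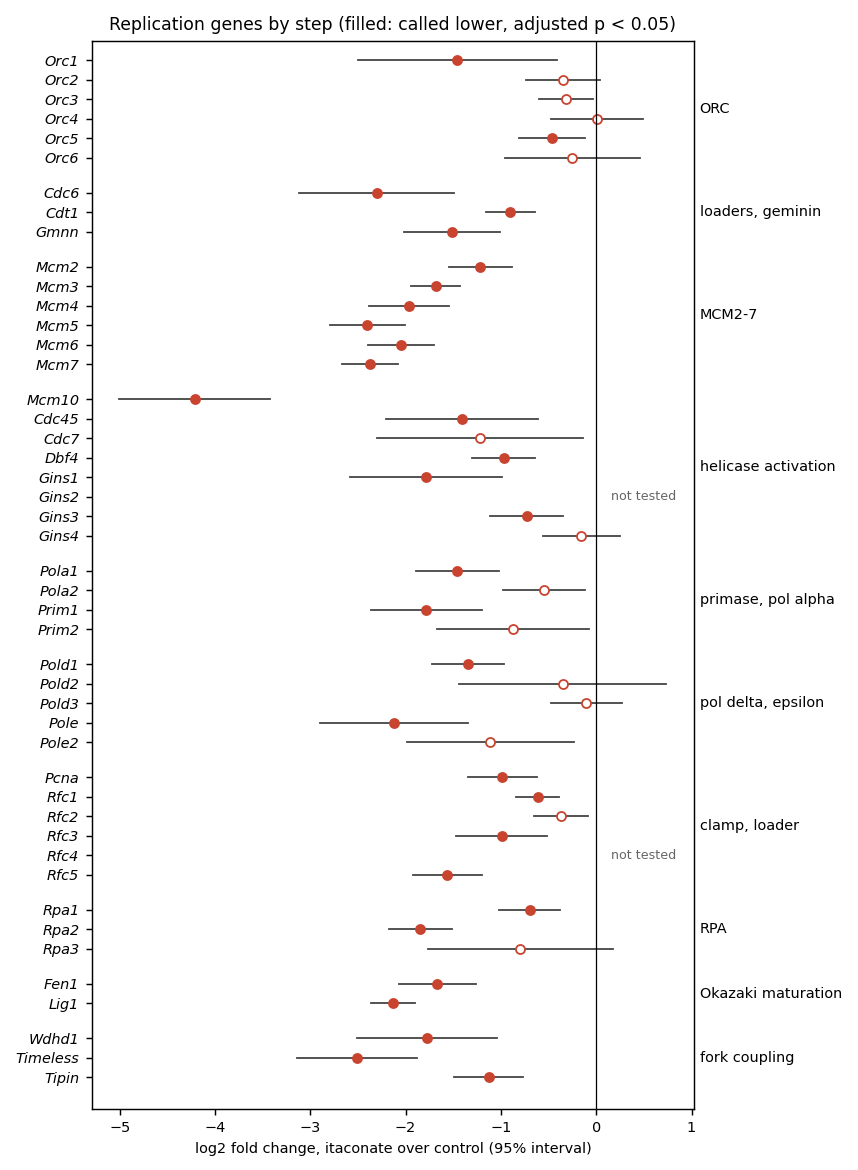
Log2 fold change of itaconate over control (x axis) for each of the 46 replication genes, grouped by step, with 95% intervals from the edgeR fit; filled points were called lower at an adjusted p under 0.05 and 2 genes were not tested. All 6 MCM2-7 genes lie left of -1, Mcm10 stands farthest left at -4.21, and the ORC genes other than Orc1 lie between -0.46 and 0.01.

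At the origins, 2 of the 6 genes of the recognition complex fell, Orc1 and Orc5. Orc1 encodes the largest subunit and the one whose protein is known in mammals to vary over the cell cycle. Orc1 had 1.88, 4.29 and 1.57 CPM in itaconate libraries, against 5.68, 6.16 and 9.49 CPM in control libraries. The groups did not overlap, and the highest itaconate library came close to the lowest control library. Its log2 fold change was -1.46 ± 0.52 (SE, edgeR adjusted p = 0.0364), a call that rests on few reads: it was lost without itaconate replicate 1 (adjusted p = 0.105), itaconate replicate 3 (0.110), control replicate 2 (0.0598) or control replicate 3 (0.207).

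Orc5, which encodes an ATP-binding subunit, had 36.6, 39.1 and 27.2 CPM in itaconate libraries, against 53.6, 42.6 and 45.4 CPM in control libraries. The groups lay apart by a narrow margin, and the log2 fold change was -0.46 ± 0.17 (adjusted p = 0.0468). That call was lost with DESeq2 (0.0649), with no filter on low counts (0.0606), with the replicate number as a block (0.0508), and without any 1 library except itaconate replicate 2 (adjusted p from 0.0540 to 0.246 over the 5 others).

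The other 4 subunit genes were not called. Orc3, a core subunit, had 52.6, 50.7 and 49 CPM in itaconate libraries, against 65.4, 65.1 and 58.8 CPM in control libraries, which did not overlap (log2 fold change -0.32 ± 0.14, adjusted p = 0.111). Orc2, whose product pairs with ORC3, had 26.3, 21.6 and 29.1 CPM in itaconate libraries and 33.7, 36.3 and 28.3 CPM in control libraries. These groups overlapped (-0.35 ± 0.19, adjusted p = 0.204). Orc4, another ATP-binding subunit, had 25.2, 20.3 and 14.3 CPM in itaconate libraries and 21.5, 22.0 and 15.6 CPM in control libraries, with a log2 fold change of 0.01 and a 95% interval from -0.47 to 0.49. Orc6, the smallest subunit, had 9.21, 8.01 and 5.93 CPM in itaconate libraries and 7.51, 10.7 and 9.30 CPM in control libraries, with an interval from -0.96 to 0.46, so a change of that size was not detectable at this depth. In the last 500 exonic bases, where 3′ reads fall, Orc2 overlaps Nif3l1 on the opposite strand over 500 bases and Orc4 overlaps Acvr2a over 446. The strand setting of the counting is not given in the sources used here, so reads of such partners may not have been told apart. Neither partner was called (log2 fold change 0.00 for Nif3l1 and 0.23 for Acvr2a).

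The loaders and their inhibitor all fell. Cdc6, the ATPase that joins ORC to load the helicase, had 3.01, 1.86 and 2.62 CPM in itaconate libraries, against 14.4, 11.3 and 11.5 CPM in control libraries. No itaconate library came near the control range, and the log2 fold change was -2.30 ± 0.40 (SE, edgeR adjusted p = 1.46e-05). Cdt1, which brings MCM2-7 to the origin, had 49.6, 54.2 and 64.4 CPM in itaconate libraries, against 103.7, 102.9 and 108.2 CPM in control libraries. This was the smallest fall of the 3, at -0.90 ± 0.13 (adjusted p = 1.85e-07), and the groups were well apart. Gmnn, which encodes geminin, the inhibitor of CDT1, averaged 9.23 ± 1.09 CPM in itaconate and 26.4 ± 4.10 CPM in control libraries (SD, n = 3 each), a log2 fold change of -1.52 ± 0.25.

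All 6 genes of the helicase ring fell, from 18.9% to 43.1% of the control level by the fitted fold change. Mcm5 fell most. It had 10.7, 9.69 and 17.4 CPM in itaconate libraries, against 60.6, 65.0 and 75.5 CPM in control libraries (log2 fold change -2.40 ± 0.19, adjusted p = 2.06e-14). Mcm2 fell least, with 24.6, 26.1 and 27.2 CPM in itaconate libraries, against 62.9, 54.9 and 63.2 CPM in control libraries (-1.22 ± 0.16, adjusted p = 6.16e-08). The groups were far apart for both genes. The 95% interval of Mcm5, from -2.79 to -2.01, did not overlap that of Mcm2, from -1.55 to -0.89, although their products fill equal places in the ring; the difference between the 2 genes was not itself tested. Mcm7 (-2.37), Mcm6 (-2.04), Mcm4 (-1.96) and Mcm3 (-1.69) lay between them. The value of Mcm7 is uncertain, since 31.0% of the stretches of 50 bases in the last 400 bases of its transcripts also occur in the pseudogene Gm5487, and 64 of its last 500 exonic bases overlap Cops6 on the opposite strand, which was not called (0.04 ± 0.13).

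The start-site regions of these genes were searched for the E2F site, because many of them are known E2F targets and moved together. The window ran from 250 bases before to 50 bases after the start of the transcript that RefSeq lists, and the letters searched on both strands were TTTCCCGC, TTTCGCGC, TTTGGCGC and TTTGCCGC; matches on opposite strands may overlap. The set of RefSeq windows used here (GRCm38.p6) covered 37 of the 46 genes. It did not hold Gmnn, Mcm4, Gins1, Gins2, Gins4, Prim2, Pole, Rfc2 and Tipin, which does not mean that RefSeq lacks them. At least 1 match was found in 13 of the 37 (35.1%), against 4.17% of the 10422 windows of tested genes and 2.26% of all 32851 windows. It was present in 10 of the 26 windows of genes called lower (38.5%) and in 3 of the 10 windows of genes not called (30%), those of Orc3, Pold3 and Pole2. A CCAAT box (CCAAT, both strands) was found in 20 of the 37 (54.1%), against 37.8% of tested genes, and the letters TTTGAA, a form of the CHR element, in 6 (16.2%), against 12.1%. A match is a description of the letters and not evidence of binding. The windows of Mcm6 and Mcm5, which hold several matches each (as does Mcm3), of the loader gene Cdc6, and of one ORC gene that was called lower beside one that was not, are printed 5′ to 3′ with the matches in capitals.
Mcm6: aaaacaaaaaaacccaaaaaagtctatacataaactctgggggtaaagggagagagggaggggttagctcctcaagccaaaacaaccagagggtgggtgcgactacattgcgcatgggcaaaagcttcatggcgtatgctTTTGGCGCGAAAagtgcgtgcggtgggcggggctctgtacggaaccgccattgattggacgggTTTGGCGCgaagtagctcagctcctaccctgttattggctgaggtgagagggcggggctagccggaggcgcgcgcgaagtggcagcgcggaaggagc
Mcm5: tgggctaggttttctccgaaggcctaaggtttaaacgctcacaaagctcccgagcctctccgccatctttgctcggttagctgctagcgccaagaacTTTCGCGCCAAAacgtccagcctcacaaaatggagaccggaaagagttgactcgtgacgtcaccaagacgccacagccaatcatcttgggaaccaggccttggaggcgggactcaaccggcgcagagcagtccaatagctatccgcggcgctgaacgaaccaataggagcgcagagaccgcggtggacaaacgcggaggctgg
Cdc6: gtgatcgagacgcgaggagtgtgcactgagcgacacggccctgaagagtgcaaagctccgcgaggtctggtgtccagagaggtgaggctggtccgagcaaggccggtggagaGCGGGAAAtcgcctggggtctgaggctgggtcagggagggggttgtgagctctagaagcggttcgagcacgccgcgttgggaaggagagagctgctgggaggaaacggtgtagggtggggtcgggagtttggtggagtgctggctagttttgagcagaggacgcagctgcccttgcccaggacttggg
Orc1: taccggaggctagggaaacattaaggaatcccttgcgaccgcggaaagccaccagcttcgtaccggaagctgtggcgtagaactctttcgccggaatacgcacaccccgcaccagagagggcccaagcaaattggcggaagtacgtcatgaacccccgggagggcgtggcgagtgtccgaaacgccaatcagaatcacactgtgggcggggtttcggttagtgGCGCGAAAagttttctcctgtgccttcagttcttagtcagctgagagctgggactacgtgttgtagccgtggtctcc
Orc3: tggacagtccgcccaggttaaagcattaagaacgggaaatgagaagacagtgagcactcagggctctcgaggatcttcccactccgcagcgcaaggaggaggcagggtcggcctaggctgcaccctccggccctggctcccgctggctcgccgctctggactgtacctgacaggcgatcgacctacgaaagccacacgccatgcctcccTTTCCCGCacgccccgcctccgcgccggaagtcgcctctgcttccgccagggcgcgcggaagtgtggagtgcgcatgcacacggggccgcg
The Mcm6 window (chr1:128359656-128359955, minus strand) holds 3 matches, at -110, -106 and -47 from the start, of which the first and second overlap. The Mcm5 window (chr8:75109259-75109558, plus strand) holds 2 overlapping matches at -153 and -149. The Cdc6 window (chr11:98907901-98908200, plus strand) holds 1 match at -138. The Orc1 window (chr4:108579204-108579503, plus strand) holds 1 match at -27, and the Orc3 window (chr4:34614893-34615192, minus strand) holds 1 match at -41. Orc1 and Orc3 thus both hold the letters close to the start, with log2 fold changes of -1.46 and -0.32. Mcm10, Mcm7, Timeless and Lig1, all with falls of more than 2, hold none of the 4 forms in this window, which says nothing about sites elsewhere. RefSeq's start lay within 134 bases of a GENCODE transcript start for all 37 genes, but more than 300 bases from the gene's outermost start for 6 of them. It lay inside the gene by 6001 bases for Timeless, 3683 for Orc2, 1982 for Lig1, 1156 for Mcm7, 629 for Pold2 and 350 for Cdc6, so the outermost starts of these genes were not searched.

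Among the genes that turn the loaded ring into a moving helicase, Mcm10 fell most of all 46. Mcm10, whose product stimulates the activated helicase, had 0.564, 1.86 and 1.05 CPM in itaconate libraries, against 24.2, 18.8 and 22.5 CPM in control libraries. These are 3, 10 and 6 counts, against 145, 116 and 121 counts, so the itaconate level rests on few counts and reached the floor in 1 library. The log2 fold change was -4.21 ± 0.39 (SE, edgeR adjusted p = 2.16e-12), the 16th lowest of the 10636 genes tested. It ran from -4.71 to -3.90 when single libraries were left out. Mcm10 lies on chromosome 2 from 4989714 to 5012791 on the minus strand (GRCm38).

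Of the 2 genes of the CDC7 kinase, 1 was called. Dbf4, the regulatory subunit, averaged 28.6 ± 2.07 CPM in itaconate and 56.0 ± 6.58 CPM in control libraries (SD, n = 3 each), a log2 fold change of -0.97 ± 0.17 (adjusted p = 9.03e-06). Cdc7, the catalytic subunit, had 2.25, 4.47 and 1.40 CPM in itaconate libraries, against 6.68, 5.02 and 7.25 CPM in control libraries. The groups did not overlap, but the log2 fold change of -1.22 ± 0.54 missed the threshold (adjusted p = 0.0997); without itaconate replicate 2 it passed (0.0403). Cdc45, a subunit of the active helicase, averaged 3.88 ± 0.566 CPM in itaconate and 10.3 ± 2.32 CPM in control libraries (-1.41 ± 0.40, adjusted p = 0.00675). Its call was lost without control replicate 2 (0.0510).

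Of the 4 GINS genes, whose products form 1 complex in equal numbers, 2 were called lower, 1 was not called and 1 was not tested. Gins1 averaged 3.31 ± 0.768 CPM in itaconate and 11.4 ± 2.05 CPM in control libraries, a log2 fold change of -1.78 with a 95% interval from -2.58 to -0.98. Gins3 fell by 0.73 on the log2 scale, with 22.5 ± 0.711 CPM in itaconate and 37.3 ± 5.99 CPM in control libraries (SD, n = 3 each). Gins4 had 24.4, 28 and 29.7 CPM in itaconate libraries and 37.1, 32.7 and 21.6 CPM in control libraries, which overlapped (-0.16, interval from -0.56 to 0.24, adjusted p = 0.643). The intervals of Gins1 and Gins4 did not overlap; the difference between the genes was not itself tested. Gins2 was not tested. It had 4, 2 and 4 counts in itaconate libraries, against 22, 10 and 9 counts in control libraries, so every itaconate library was lower, and its last 500 exonic bases overlap Gse1 on the opposite strand throughout.

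**Figure D2:**
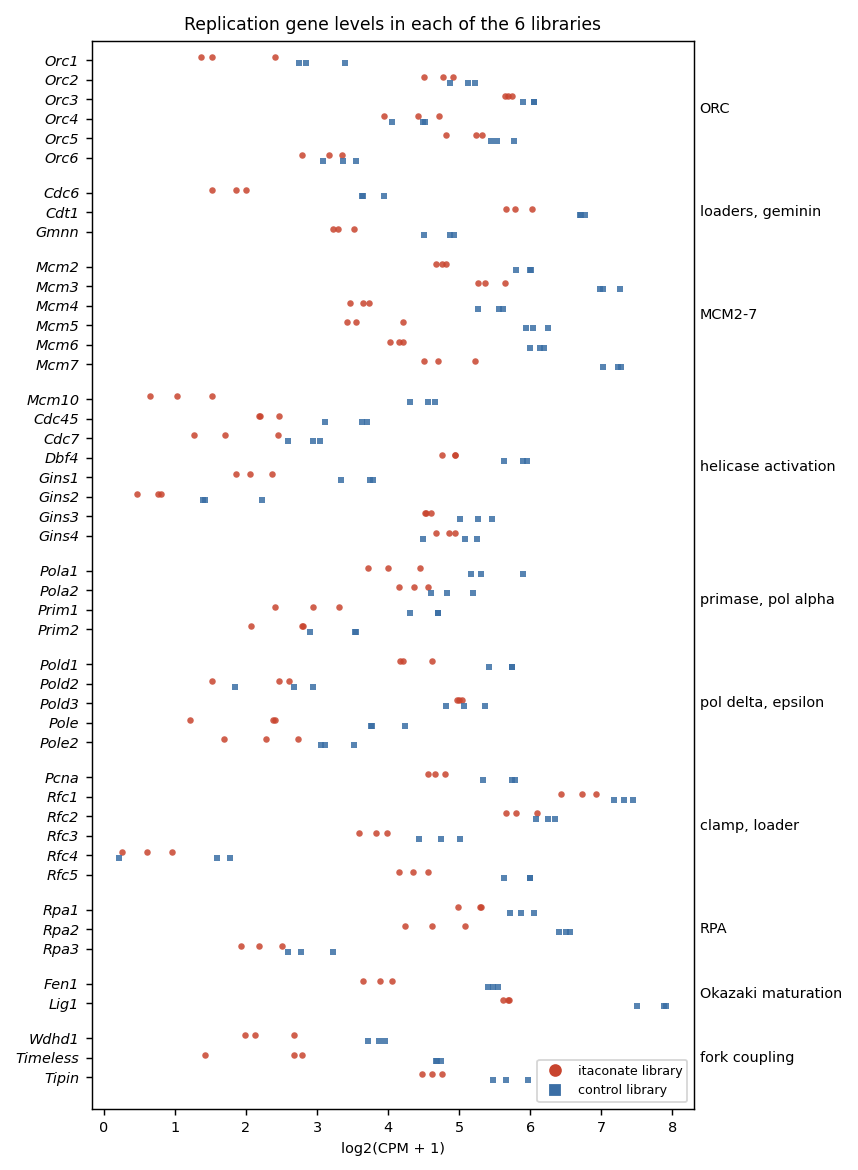
Level of each of the 46 replication genes in every library, as log2(CPM + 1) on the x axis, with circles for the 3 itaconate libraries and squares for the 3 control libraries. The circles and squares are far apart for the MCM2-7 genes, Mcm10, Lig1 and Timeless, and mix for Orc4, Orc6, Gins4, Pold2 and Pold3.

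Of the 4 genes of the primase and polymerase alpha complex, which lays down the RNA-DNA primer, 2 fell. The catalytic primase gene Prim1 had 4.32, 6.71 and 8.90 CPM in itaconate libraries, against 25.0, 18.8 and 25.1 CPM in control libraries (log2 fold change -1.78 ± 0.29, adjusted p = 3.14e-06). Prim2, the other primase subunit, had 3.19, 5.96 and 5.93 CPM in itaconate libraries, against 10.7, 6.48 and 10.6 CPM in control libraries. The groups did not overlap for either gene, but Prim2 was not called (-0.87 ± 0.40, adjusted p = 0.114). The catalytic polymerase gene Pola1 averaged 16 ± 4.42 CPM in itaconate and 44.1 ± 13.0 CPM in control libraries (-1.46 ± 0.22). Its partner Pola2 had 19.5, 16.8 and 22.5 CPM in itaconate libraries, against 23.4, 35.5 and 27.3 CPM in control libraries (-0.55 ± 0.21, adjusted p = 0.0580). It was called lower with library totals as the scale (0.0360), without itaconate replicate 3 (0.0428) and without control replicate 1 (0.0349).

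The catalytic subunit genes of both main fork polymerases fell, while none of the 3 accessory subunit genes among the 46 was called. Pole, the catalytic subunit of the leading-strand polymerase epsilon, had 1.32, 4.29 and 4.19 CPM in itaconate libraries, against 17.9, 12.5 and 12.6 CPM in control libraries (log2 fold change -2.12 ± 0.39, adjusted p = 2.85e-05). Pold1, the catalytic subunit of polymerase delta, averaged 19.3 ± 3.65 CPM in itaconate and 48.9 ± 6.28 CPM in control libraries (-1.34 ± 0.19, adjusted p = 1.54e-07). Both were lower in every itaconate library.

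Pold3, an accessory subunit of polymerase delta that binds PCNA, had 31.0, 30.2 and 31.9 CPM in itaconate libraries and 40.2, 27.2 and 32.5 CPM in control libraries. The groups overlapped, and its 95% interval, from -0.48 to 0.27, did not overlap that of Pold1, from -1.72 to -0.96. Pold2, the subunit that bridges the others, had 4.51, 1.86 and 5.06 CPM in itaconate libraries and 6.68, 2.59 and 5.39 CPM in control libraries, with an interval from -1.44 to 0.74, too wide to show a change of the size seen for Pold1. Pole2, the second subunit of polymerase epsilon, had 5.64, 2.24 and 3.84 CPM in itaconate libraries, against 7.68, 7.29 and 10.4 CPM in control libraries. These did not overlap, but the log2 fold change of -1.11 ± 0.44 was not called (adjusted p = 0.0605); with library totals it was (0.0481), as without itaconate replicate 1 (0.0317). Its value is uncertain, since 43.8% of the stretches at its 3′ end are shared with Gm49384, a gene annotated over it on the same strand.

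The sliding clamp gene Pcna, whose product holds the polymerases on DNA, averaged 24.6 ± 2.12 CPM in itaconate and 48.7 ± 8.13 CPM in control libraries (SD, n = 3 each). Every itaconate library was lower, and the log2 fold change was -0.99 ± 0.18 (edgeR adjusted p = 2.72e-05). Of the 5 loader genes, 3 fell. Rfc5, a small loader subunit, had 16.7, 19.4 and 22.7 CPM in itaconate libraries, against 62.6, 63.0 and 48.4 CPM in control libraries (-1.56 ± 0.18, adjusted p = 1.03e-09). Wsb2 on the opposite strand overlaps 499 of the last 500 exonic bases of Rfc5, and Wsb2 was not called (0.25 ± 0.14). Rfc3, also a small subunit, fell by 0.99 on the log2 scale, and Rfc1, the large subunit, by 0.61 ± 0.11, with 103.9 ± 17.7 CPM in itaconate and 159.0 ± 15 CPM in control libraries.

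Rfc2 had 54.9, 49.4 and 67.1 CPM in itaconate libraries and 75.0, 66.6 and 80.3 CPM in control libraries. The highest itaconate library passed the lowest control library by a small margin, and the log2 fold change of -0.37 ± 0.14 missed the threshold (adjusted p = 0.0507). It passed with library totals (0.0231), the stricter filter (0.0455), the replicate block (0.0397), without itaconate replicate 3 (0.0126) and without control replicate 2 (0.0476). Lat2 on the opposite strand overlaps 952 exonic bases of Rfc2, but 0 of the last 500, and was called higher (log2 fold change 0.69 ± 0.08). Rfc4 was not tested, with 5, 1 and 3 counts in itaconate libraries and 12, 1 and 13 counts in control libraries, which overlapped. In its last 500 exonic bases, 194 overlap Eif4a2 on the opposite strand.

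The 3 genes of RPA, the complex that coats single-stranded DNA at the fork, were Rpa1 and Rpa2, which fell, and Rpa3, which was not called. Rpa2, the middle subunit, had 17.8, 23.5 and 32.8 CPM in itaconate libraries, against 93.7, 83.8 and 89.8 CPM in control libraries (log2 fold change -1.85 ± 0.16, adjusted p = 5.91e-13). Rpa1, the large DNA-binding subunit, had 30.6, 38.2 and 38.7 CPM in itaconate libraries, against 65.4, 51.7 and 57.5 CPM in control libraries (-0.70 ± 0.16, adjusted p = 0.000761). The groups did not overlap for either gene. Rpa3, the small subunit, had 4.70, 3.54 and 2.79 CPM in itaconate libraries, against 5.01, 5.83 and 8.37 CPM in control libraries, and was not called (-0.80 ± 0.48, adjusted p = 0.260).

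Both genes that finish the lagging strand fell. Lig1, the ligase that seals Okazaki fragments, had 47.9, 50.7 and 51.1 CPM in itaconate libraries, against 240.9, 181.0 and 234.9 CPM in control libraries. The lowest control library held more than 3 times the highest itaconate library, and Lig1 had the smallest adjusted p of the 46 genes (log2 fold change -2.13 ± 0.12, edgeR adjusted p = 1.04e-20). It lies on chromosome 7 from 13277283 to 13311433 on the plus strand (GRCm38). Fen1, the nuclease that trims the fragments, had 13.7, 11.6 and 15.7 CPM in itaconate libraries, against 41.2, 43.6 and 45.8 CPM in control libraries (-1.67 ± 0.20, adjusted p = 3.09e-09). Its 3′ end overlaps Gm10143, annotated as antisense, over 443 of the last 500 exonic bases.

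The 3 genes that couple and protect the fork also fell. Timeless, of the fork protection complex, had 1.69, 5.41 and 5.93 CPM in itaconate libraries, against 25.7, 24.5 and 24.7 CPM in control libraries (log2 fold change -2.51 ± 0.32, adjusted p = 1.13e-08). Tipin, whose product binds TIMELESS, had 21.2, 26.1 and 23.5 CPM in itaconate libraries, against 43.6, 49.6 and 61.9 CPM in control libraries (-1.13 ± 0.18, adjusted p = 2.21e-06). Both were lower in every itaconate library, and their 95% intervals, from -3.15 to -1.88 and from -1.49 to -0.77, did not overlap. Wdhd1, which links the helicase to polymerase alpha, averaged 3.92 ± 1.31 CPM in itaconate and 13.4 ± 1.19 CPM in control libraries (-1.77 ± 0.37).

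By step, the median log2 fold change of tested genes was -0.33 for ORC, -1.52 for the loaders and geminin, -2.0 for MCM2-7, -1.22 for helicase activation, -1.17 for primase and polymerase alpha, -1.11 for polymerases delta and epsilon, -0.99 for the clamp and loader, -0.80 for RPA, -1.90 for fragment joining and -1.77 for the fork coupling genes. Called falls among tested genes were 2 of 6, 3 of 3, 6 of 6, 5 of 7, 2 of 4, 2 of 5, 4 of 5, 2 of 3, 2 of 2 and 3 of 3 in the same order. Gins2 and Rfc4 were not tested, and 11.2% of all genes tested were called lower. The steps hold 2 to 8 genes each, and the differences between steps were not tested.

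For 7 pairs, the genes were compared within each library as a difference of log2 CPM (prior count 2), which asks whether partners changed by unequal amounts. With 3 libraries against 3, the smallest exact two-sided permutation p is 0.1, so no pair could pass. Rpa1 minus Rpa2 was 0.77, 0.69 and 0.24 in itaconate libraries, against -0.51, -0.69 and -0.64 in control libraries. The sign thus differed between the groups in every library (difference 1.18, exact permutation p = 0.1, 0.175 adjusted over the 7 pairs). Mcm10 minus Mcm2 was -4.77, -3.58 and -4.30 in itaconate libraries, against -1.37, -1.53 and -1.48 in control libraries, a difference of -2.76 with the same exact p. Prim1 minus Prim2 was 0.40, 0.16 and 0.56 in itaconate libraries, against 1.20, 1.49 and 1.22 in control libraries, a difference of -0.93 with the same exact p. The groups stood apart for these 3 pairs.

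Gmnn minus Cdt1 was -2.44, -2.64 and -2.58 in itaconate libraries, against -1.81, -1.85 and -2.30 in control libraries. The groups did not overlap (difference -0.57, exact permutation p = 0.1), so the transcript of the inhibitor was lower relative to that of its target in all itaconate libraries. They overlapped for Orc1 minus Orc2 (difference -1.08, exact p = 0.3), Dbf4 minus Cdc7 (0.28, exact p = 0.5) and Rfc1 minus Rfc4 (0.20, exact p = 0.8). Orc1, Cdc7, Rfc4 and Prim2 had few counts, and Mcm10 had few in the itaconate libraries. The part of depth in these differences was not tested.

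**Figure D3:**
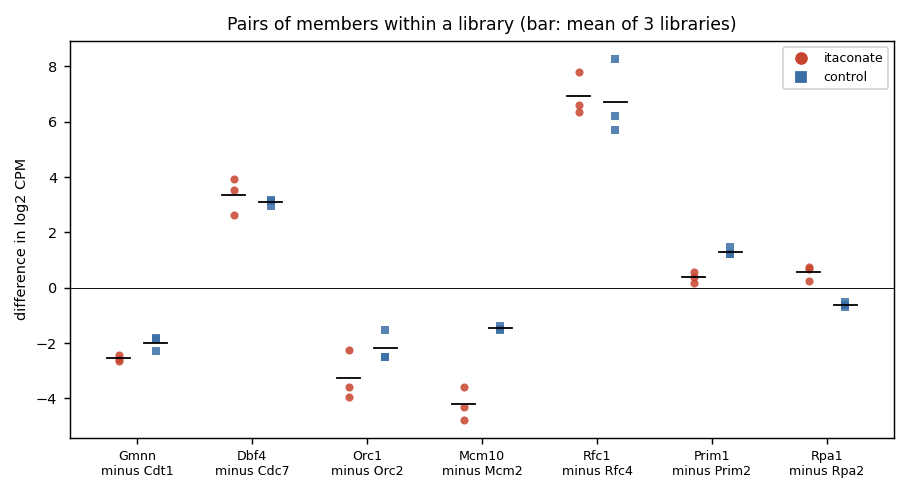
Difference in log2 CPM between 2 genes within each library (y axis) for 7 pairs, with circles for itaconate libraries, squares for control libraries and bars for the mean of 3. Rpa1 minus Rpa2 lies above 0 in the itaconate libraries and below 0 in the control libraries, and Mcm10 minus Mcm2 differs most between the groups.

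Lists of related genes were read beside the core machinery. Of 56 genes in 5 lists, all but Twnk, 55 in number, were found in the table. Of these, 51 were tested, of which 18 fell (35.3%) and 0 rose. Among all genes tested, 11.2% were called lower and 10.7% higher. For the higher direction, 1 gene of the fork accessory list passed an unadjusted p under 0.05 with each of edgeR, DESeq2 and limma-voom. After adjustment 0 were called by any of them. Of the genes called lower, Fbxo5, Chtf18, Uhrf1 and Polq did not meet the filter's minimum of 1.76 CPM in every itaconate library. They met it in every control library, so their testing depended on the group in which they were high.

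Of 13 origin firing and licensing factors, 4 fell (33.3% of the 12 tested) and 8 were not called, with a median log2 fold change of -0.53. Fbxo5, or EMI1, which keeps geminin from being degraded, had 1.13, 2.24 and 2.97 CPM in itaconate libraries, against 21.2, 16.4 and 20.1 CPM in control libraries (-3.17 ± 0.37, edgeR adjusted p = 1.52e-09). Dtl, or CDT2, which directs CDT1 for destruction at the fork, had 3.19, 3.91 and 7.33 CPM in itaconate libraries, against 25.7, 16.5 and 23.2 CPM in control libraries (-2.17 ± 0.32, adjusted p = 3.81e-07). Both regulators of CDT1 were thus lower in every itaconate library. Recql4 had 0 counts in all 6 libraries.

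Of 14 fork accessory factors, 5 fell (38.5% of the 13 tested) and 8 were not called, with a median of -0.54. The 5 became 3 with limma-voom, without itaconate replicate 1 and without any 1 control library. Chtf18, of an alternative clamp loader, lost its call in 9 of the 13 alternative settings, Atad5, which unloads PCNA, in 4, and the nuclease and helicase gene Dna2 in 1. Top2a, the topoisomerase that untangles copied DNA, had a log2 fold change of -2.35 ± 0.11, and Clspn, or claspin, the partner of TIMELESS in checkpoint signalling, of -1.85 ± 0.24. Clspn had 6.39, 10.4 and 12.6 CPM in itaconate libraries, against 41.1, 31.6 and 33.5 CPM in control libraries. The small subunits of polymerase epsilon were not called: Pole4 had 48.4 ± 2.33 CPM in itaconate and 48.5 ± 7.07 CPM in control libraries (-0.01, 95% interval from -0.32 to 0.31), and Pole3 had -0.26 ± 0.17 (both chosen after their values were seen). Pold4, the fourth subunit of polymerase delta, had 0 counts in all 6 libraries.

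The factors that rebuild and mark chromatin behind the fork fell in 8 of 9 cases, and the ninth, Asf1a, was not tested. Among all genes tested 11.2% were called lower. The median of the 8 was -0.82. The call of Chaf1b was lost without itaconate replicate 2 (edgeR adjusted p = 0.0703) or control replicate 3 (0.114). Asf1b, a histone chaperone of dividing cells, had 5.26, 6.71 and 8.20 CPM in itaconate libraries, against 41.4, 35.5 and 41.1 CPM in control libraries (-2.54 ± 0.24, adjusted p = 1.85e-12). Chaf1a, the large subunit of the CAF-1 chaperone that binds PCNA, had 11.5, 7.64 and 7.15 CPM in itaconate libraries, against 34.2, 34.5 and 38.5 CPM in control libraries (-2.03 ± 0.23, adjusted p = 1.11e-09). The groups were far apart for both.

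Of 12 other nuclear polymerase genes, 11 were tested, with a median log2 fold change of -0.06. Of these, 1 fell (9.09%), near the 11.2% of all genes tested. It was Polq, which joins broken ends, with 2, 9 and 0 counts in itaconate libraries, against 18, 35 and 16 counts in control libraries (-2.49 ± 0.81, adjusted p = 0.0207). That call was lost without itaconate replicate 1 (0.104), itaconate replicate 3 (0.113), control replicate 2 (0.181) or control replicate 3 (0.0514). Polk, a bypass polymerase with the next smallest p of the list, had 26.5, 17.9 and 27.4 CPM in itaconate libraries and 16.7, 14.7 and 21.8 CPM in control libraries, which overlapped (0.44 ± 0.23, adjusted p = 0.190).

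Of the 7 mitochondrial DNA replication genes found, 0 were called by edgeR, 0 passed an unadjusted p under 0.05, and 0 were called by DESeq2 or limma-voom, with a median of -0.16. Polg2, the accessory subunit of the mitochondrial polymerase, had 2.44, 8.20 and 3.66 CPM in itaconate libraries and 8.85, 4.05 and 12.6 CPM in control libraries (-0.83 ± 0.45, adjusted p = 0.198). It was called lower without itaconate replicate 2 (0.0413). Tfam, which packages mitochondrial DNA, had a log2 fold change of -0.32 ± 0.18 (adjusted p = 0.199). Since 11.2% of all genes tested were called lower, 0 calls among 7 genes lies near the background. Whether the nuclear and mitochondrial lists differ was not tested.

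**Figure D4:**
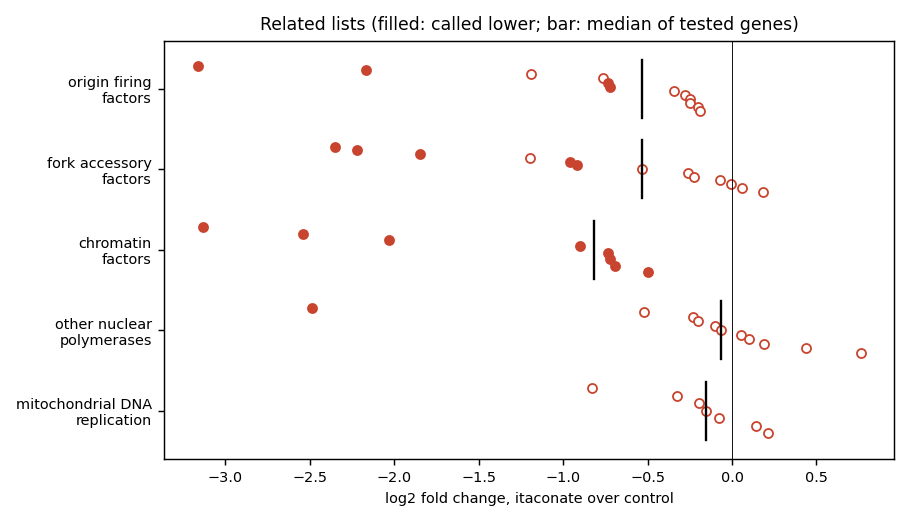
Log2 fold change of itaconate over control (x axis) for each tested gene of 5 lists of related genes, with filled points for genes called lower and a bar at the median of each list. All 8 tested chromatin factors are filled, while 1 of the other nuclear polymerases and none of the mitochondrial genes is.

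**Figure D5:**
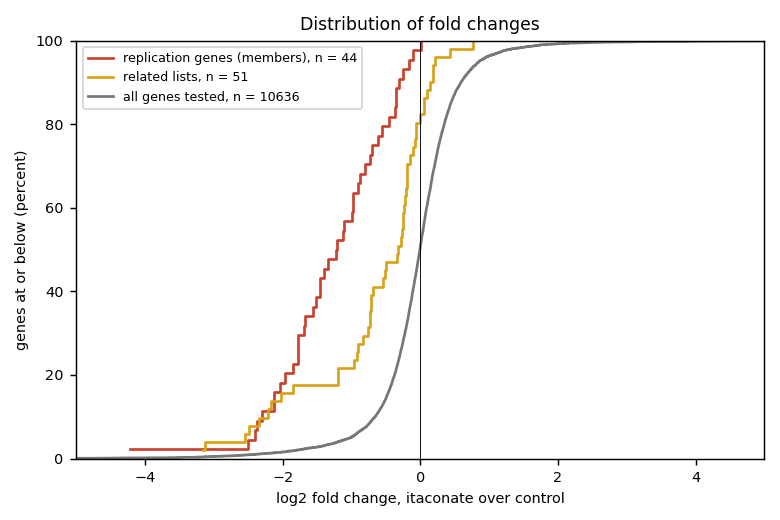
Cumulative share of genes (y axis, percent) at or below each log2 fold change of itaconate over control (x axis) for the 44 tested replication genes, the 51 tested genes of the related lists and all 10636 genes tested. The replication genes lie left of the other curves over most of the range, with a median of -1.22 beside -0.01 for all genes.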

How the data were processed

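The authors deposited whole-number read counts for each gene, with no scaling. Per the labels' protocols, the kit was QuantSeq FWD from Lexogen. STAR 2.7.5a, HTSeq 0.6.1, edgeR and the build mm10 are named, per the submitters' processing notes. Not given in the sources used here: trimming, strand setting and annotation version. All 6 count columns were used, each matched to a sample by its header name.

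Genes passing edgeR's filterByExpr (minimum count 10, minimum total 15) were kept, 10636 in all. Libraries were scaled by TMM and tested two-sided in edgeR 4.0.16 under R 4.3.3 by the robust quasi-likelihood F test, with the group as the only term and Benjamini-Hochberg adjustment over all genes tested. The code of the fit was run on counts simulated with dispersions taken from these libraries. That run checks the code and says nothing about the calls made here. SE is the absolute log2 fold change over the square root of F. Alternatives used DESeq2 1.42.0, limma-voom 3.58.1, DESeq2 size factors, library totals, 2 other filters, the replicate number as a block, and each library left out.

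Genes given with every library's value were, for each step, those with the largest and smallest absolute log2 fold change, those not called lower and those not tested, and the 2 smallest p of each related list; some other genes are given likewise. The members and lists were chosen with earlier results of these data known. Coordinates and overlaps come from GENCODE M21 (GRCm38, the assembly of mm10).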

Additional observations from a re-analysis of the deposited data

How the results depend on the processing

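The number of replication genes called lower was 31 and ranged from 29 to 34 over the 13 alternatives, and 0 were called higher in each. Of the 44 tested genes, 34 kept their direction and their side of the threshold in each alternative that tested them; Pold2 was not tested under the stricter filter. Orc1, Orc5 and Cdc45 lost their call in at least 1 setting, and Cdc7, Pola2, Pole2 and Rfc2 gained one. The sign changed for 3 genes that were called in no setting. Orc4, at 0.01, was -0.039 with library totals, -0.030 with limma-voom and -0.0020 with the replicate block, and ran from -0.19 to 0.20 with single libraries left out. Gins4 ran from -0.35 to 0.0063 and Pold3 from -0.23 to 0.057 with single libraries left out. Among the pairs, the difference also changed sign for Dbf4 minus Cdc7 (from -0.0029 to 0.64) and Rfc1 minus Rfc4 (from -0.31 to 0.97) with single libraries left out. Among related genes, none of them called in those settings, the sign changed for Mcm8 (from -0.38 to 0.049), Chtf8 (from -0.22 to 0.013), Pole4 (from -0.11 to 0.10, and 0.0024 with the replicate block), Rnaseh2c (from -0.050 to 0.19), Poli (from -0.18 to 0.0074), Rev1 (from -0.91 to 0.22), Rev3l (from -0.011 to 0.13), Mad2l2 (from -0.12 to 0.37), Primpol (from -0.25 to 0.18) and Polg (from -0.33 to 0.10) with single libraries left out. Top1 was called higher without itaconate replicate 3 (log2 fold change 0.27, adjusted p = 0.0179). The causes were not tested. The median log2 fold change ran from -1.28 to -1.15. With library totals as the scale, 34 were called, and the median of all genes moved from -0.01 to -0.06.

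No pairing by the replicate numbers in the titles was seen. Deviations from the group means correlated at -0.01, 0.01 and 0.04 for equal numbers and at -0.04 to 0.03 for unequal numbers. With 3 libraries in each group, a weak pairing could be missed. With the replicate block, 31 replication genes were called lower and 0 higher, and all genes had 1160 lower and 1087 higher.

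Depth limits the genes with few counts: for Orc1, Cdc7, Pold2, Rpa3 and Orc6 the intervals are wide, and Gins2 and Rfc4 could not be tested.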
